A study of Mus musculus with 4 samples.

Results

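The 7 genes described here belong to the Ms4a family (membrane-spanning 4-domains, subfamily A): Ms4a6b, Ms4a6c, Ms4a6d, Ms4a4a, Ms4a4c, Ms4a7 and Ms4a8a. They were taken by symbol from a table of 13976 genes, and all 7 were present. The table came from bulk RNA sequencing of mouse EO771 tumours, which grow from a mammary carcinoma cell line. The 4 libraries, 1 for each sorted population, were the CD103+cDC1 (conventional dendritic cells of type 1, here cDC1), the CD11b+cDC2 (type 2, here cDC2), the CD103intCD11b+DC (here CD103int DC) and the macrophages. The study's title names hetIL-15, a heterodimer of interleukin-15 with its receptor alpha chain, given near the tumour, but the labels tie no library to a treatment. The labels give neither mouse strain and age nor the sorting gates, and they do not say how many mice or cells went into a library. With 1 library for each population, no test, standard deviation or p-value was possible.

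Ms4a proteins cross the cell membrane several times and include CD20 on B cells (encoded by Ms4a1) and the beta chain of the high-affinity IgE receptor (Ms4a2). They are thought to sit beside signalling receptors and to tune them. Several members are known from myeloid cells: Ms4a7 is a macrophage and microglia gene, Ms4a4a is found on macrophages and associates with the fungal receptor dectin-1, Ms4a4c and Ms4a6c are often seen in monocytes, and Ms4a8a has been described in tumour-associated macrophages.

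Levels are CPM (counts per 1000000 reads, on scaled library sizes). Where 4 levels follow each other, they run from cDC1 over cDC2 and CD103int DC to macrophages. A gene was called higher or lower by a rule of size: a difference in log2(CPM + 1) of at least 1, a 2-fold step, with at least 10 CPM in the higher library. Brackets give 95% intervals that cover counting error only (Poisson for a level, binomial for a ratio), on reads estimated from the values. The estimated totals were 44425908 reads in the cDC1, 44940500 in the cDC2, 55960049 in the CD103int DC and 63817502 in the macrophage library. The cDC1 column listed 454 genes at 0, against 10 to 20 in the others. The column of the macrophages begins with another code than the rest. If that marks a batch, it and the population cannot be told apart.

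Markers fitted the labels only in part (lists were called by the same 2-fold step, at 1 CPM or more). Of 8 cDC1 markers, 6 were called higher in the cDC1 than in the cDC2 library, against 8.002% of the 13021 genes with at least 1 CPM in either library. Their summed level was 1221 CPM in the cDC1 against 306 to 341 CPM elsewhere. The 5 plasmacytoid DC markers in the table were also highest in sum there, at 741, 187, 143 and 293 CPM. Of these 5, 4 were called higher in the cDC1 than in the cDC2 library and none lower, against the same 8.002% higher of all genes. The 12 macrophage markers summed to 982 CPM in the cDC1, 4846 in the cDC2, 3394 in the CD103int DC and 4639 in the macrophage library, with none at 0. The complement gene C1qa stood at 572 CPM in the cDC2 and 105 in the macrophage library. The 8 cDC2 markers were split, with 3 called higher and 3 lower in the cDC1 than in the cDC2 library (8.002% and 10.6% of all genes). The lectin Cd209a was at 257 CPM in the cDC1 and 31.5 in the cDC2 library, while the integrin gene Itgam (CD11b) was at 36.7 and 638 CPM and Sirpa at 399.7 and 1062 CPM. The library labelled cDC2 thus carried macrophage markers, in sum, at the level of the macrophage library. In the CD103int DC, 11 of the 12 macrophage markers were called higher than in the cDC1 and none lower (10.1% and 6.77% of all genes). Against the macrophages, 3 of the 12 were called higher in the CD103int DC and 4 lower (5.17% and 6.62% of all genes). The labels are kept below only as names. The 11 monocyte markers in the table summed to 7141 CPM in the macrophage library and 1419 to 1998 in the others. The T and NK cell list, taken without the family gene Ms4a4b, summed to 17.4, 17.1, 1.27 and 7.17 CPM. Whether fewer cells of a type or less RNA per cell lay behind a lower level cannot be told apart in bulk samples, and the part of these markers in the Ms4a differences was not tested.

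All 7 genes lie on chromosome 19 (GRCm38, GENCODE M21), in a family cluster from 10962293 to 11640851 that also holds Ms4a1, Ms4a2 and Ms4a3. Ms4a8a (11067471 to 11081102) and Ms4a7 (11321039 to 11336146) are read from the minus strand. Ms4a4a (11375523 to 11392790), Ms4a4c (11404770 to 11427246), Ms4a6c (11469366 to 11482192) and Ms4a6b (11516512 to 11531256) follow on the plus strand, and Ms4a6d (11586604 to 11604849) is on the minus strand again. Each has 7 exons in its longest coding transcript except Ms4a6b with 8, and the coding parts run from 217 codons (Ms4a6c) to 290 codons (Ms4a8a).

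The Ms4a6 genes are close copies, which bears on how reads could be assigned. Coding bases 100 to 219 of the 3 are printed here from GENCODE M21, with the 13 positions that are not the same in all of them in capitals.
Ms4a6b: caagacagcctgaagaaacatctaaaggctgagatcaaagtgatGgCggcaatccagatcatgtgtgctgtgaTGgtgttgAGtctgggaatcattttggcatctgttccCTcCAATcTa
Ms4a6c: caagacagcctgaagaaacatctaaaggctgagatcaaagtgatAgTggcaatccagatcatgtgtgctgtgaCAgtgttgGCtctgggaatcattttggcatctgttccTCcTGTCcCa
Ms4a6d: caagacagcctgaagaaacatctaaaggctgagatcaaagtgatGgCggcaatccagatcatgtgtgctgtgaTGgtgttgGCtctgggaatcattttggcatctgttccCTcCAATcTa
In this stretch Ms4a6c had a base of its own at 11 positions, Ms4a6b at 2 and Ms4a6d at none. Over whole coding sequences, Ms4a6b and Ms4a6c were identical at 85.4% of aligned bases and Ms4a6b and Ms4a6d at 81.2%, with shared runs of up to 55 and 81 bases. Ms4a4c was closest to Ms4a4b, a T cell gene that is not among the 7, at 91.7% with a shared run of 127 bases. All 50-base windows of each gene's transcript with the longest coding part were looked for in the transcripts of other genes. Of these windows, 11.3% (Ms4a6c), 8.48% (Ms4a4c), 5.89% (Ms4a6b) and 2.92% (Ms4a6d) also occurred in another gene. None did for Ms4a7, Ms4a4a and Ms4a8a. The values of Ms4a6b, Ms4a6c and Ms4a4c were fractional read numbers in all 4 libraries, and those of the other 4 were whole numbers of reads. Levels of Ms4a6b, Ms4a6c and Ms4a4c are therefore uncertain as far as reads were split between copies. Ms4a6c also overlaps BE692007 on the other strand, and Ms4a4c and Ms4a6b overlap Gm5692 and Gm19261 there. The library kit keeps strand, but whether the counting used it is not stated, so reads of such partners may not be told apart.

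The promoters are printed as a description, and whether they bear on the patterns over the libraries (below) was not tested. They are the bases before the RefSeq start (GRCm38.p6), up to 250 and without bases inside an annotated exon. For Ms4a4c and Ms4a6b the printed bases lie inside the GENCODE gene, which begins further upstream, at 11404770 and 11516512. Bases before those outer starts were not searched. Capitals mark matches on either strand to GGAAGT (core of ETS factors and PU.1), GAAANNGAA (interferon response element), TGANTCA (AP-1) and TGCTGA (Maf half-site).
Ms4a6b, chr19:11518309-11518452, plus strand: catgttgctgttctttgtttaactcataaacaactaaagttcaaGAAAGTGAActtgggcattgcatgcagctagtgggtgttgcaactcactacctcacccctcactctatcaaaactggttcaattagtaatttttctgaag
Ms4a6c, chr19:11469118-11469365, plus strand: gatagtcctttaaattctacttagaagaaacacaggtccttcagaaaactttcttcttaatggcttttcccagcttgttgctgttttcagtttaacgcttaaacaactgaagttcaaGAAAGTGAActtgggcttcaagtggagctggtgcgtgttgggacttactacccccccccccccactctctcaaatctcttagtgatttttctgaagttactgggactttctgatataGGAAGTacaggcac
Ms4a4c, chr19:11407411-11407660, plus strand: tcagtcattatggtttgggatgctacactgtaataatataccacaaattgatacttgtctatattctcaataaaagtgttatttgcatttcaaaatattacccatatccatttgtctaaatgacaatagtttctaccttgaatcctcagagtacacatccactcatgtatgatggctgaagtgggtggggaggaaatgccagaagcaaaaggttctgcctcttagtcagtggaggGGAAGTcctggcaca
Ms4a4a, chr19:11375238-11375487, plus strand: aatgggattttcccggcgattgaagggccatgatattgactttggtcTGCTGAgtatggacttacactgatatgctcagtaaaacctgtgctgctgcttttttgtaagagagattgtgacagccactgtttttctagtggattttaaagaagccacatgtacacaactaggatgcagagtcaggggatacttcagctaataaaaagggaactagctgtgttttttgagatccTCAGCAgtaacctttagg
Ms4a7, chr19:11336147-11336396, minus strand: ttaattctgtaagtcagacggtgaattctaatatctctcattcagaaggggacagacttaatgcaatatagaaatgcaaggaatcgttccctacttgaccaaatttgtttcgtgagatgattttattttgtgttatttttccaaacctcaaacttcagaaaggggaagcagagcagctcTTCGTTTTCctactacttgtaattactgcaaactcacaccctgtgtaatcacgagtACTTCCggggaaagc
Ms4a8a, chr19:11081104-11081353, minus strand: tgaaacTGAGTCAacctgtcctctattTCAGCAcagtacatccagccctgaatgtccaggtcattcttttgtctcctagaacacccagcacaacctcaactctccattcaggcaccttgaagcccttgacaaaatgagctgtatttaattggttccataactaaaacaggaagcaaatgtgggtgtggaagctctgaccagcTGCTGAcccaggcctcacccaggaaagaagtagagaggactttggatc
RefSeq promoters were at hand for 6 of the 7 genes, in 7 windows of 250 bases, since Ms4a7 has 2 starts. GAAANNGAA occurred in 4 of the 7 windows (Ms4a6b, Ms4a6c and both of Ms4a7), against 7.13% of all 32851 promoters of that length. GGAAGT occurred in 4 of the full windows as well (Ms4a6b, Ms4a6c, Ms4a4c and the window of Ms4a7 printed here), against 19.7% of all promoters. Both matches of Ms4a6b, 85 and 43 bases before its start, lie in the 106 bases left out of its printed sequence. TGANTCA was found in Ms4a8a and in the other Ms4a7 window, against 6.75% of promoters, and TGCTGA in Ms4a8a and Ms4a4a, against 16.1%. TTGCNNAA, the C/EBP motif, was in none of the 7 windows and in 9.56% of promoters. GATAAG, bound by GATA factors, was in 1, the other Ms4a7 window, and in 6.55% of promoters. The Ms4a6b and Ms4a6c promoters share the same letters, GAAAGTGAA, at their interferon element, 206 and 133 bases before the start, and a run of 48 identical bases around GGAAGT. That run lies partly in an annotated exon of Ms4a6b and is printed for Ms4a6c only. They were identical at 59.6% of 250 bases, against 46.8% to 54.0% for the other pairs of windows, so that these matches of Ms4a6b and Ms4a6c are not independent. A match describes letters only and shows no binding.

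The macrophage library held the highest level of 6 of the 7 genes, though for Ms4a8a the CD103int DC stood above it once columns were brought to equal totals. The cDC2 library held the highest level of Ms4a7. Ms4a6d was at 40.1 CPM in the cDC1, 287 in the cDC2, 199 in the CD103int DC and 579 in the macrophage library. Its level in the cDC1 was 4.97 times (4.74 to 5.22) below the next library, and the other 3 stood in steps of 1.44 and 2.02. Ms4a6d has been reported in a surface complex of macrophages with the receptor Vsig4.

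Ms4a6b was at 111, 199.6, 105 and 528 CPM, and Ms4a6c at 283, 441, 256 and 803 CPM. Ms4a4c was at 253, 359, 219 and 990 CPM. These 3 genes were lowest in the CD103int DC, just under the cDC1, by 1.06 times (1.02 to 1.10) for Ms4a6b, 1.11 times (1.08 to 1.13) for Ms4a6c and 1.15 times (1.12 to 1.18) for Ms4a4c. These gaps exceeded counting error alone, but the intervals leave out the splitting of reads between copies and the scaling. With columns at equal totals the log2 differences went from -0.08 to -0.18 (Ms4a6b), -0.15 to -0.25 (Ms4a6c) and -0.20 to -0.31 (Ms4a4c). No replicate shows how far libraries of 1 population vary. The macrophage library stood above the cDC2 by 2.65 times for Ms4a6b, 1.82 times for Ms4a6c and 2.76 times for Ms4a4c.

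Ms4a4a was at 15.8 CPM in the cDC1, 59.4 in the cDC2, 32.0 in the CD103int DC and 214 in the macrophage library. The macrophage level was 3.60 times (3.45 to 3.75) that of the cDC2, a larger gap between the highest and the next library than for any other of the 7 genes. Ms4a7 was at 5.85 CPM (5.19 to 6.57), 114, 40.2 and 75.2 CPM over the same libraries. It was thus 1.51 times (1.45 to 1.57) higher in the cDC2 than in the macrophage library, and its cDC1 level was 6.87 times (6.07 to 7.79) below that of the CD103int DC. Ms4a8a was listed at 0 in the cDC1 and at 7.01, 10.7 and 11.2 CPM in the cDC2, CD103int DC and macrophage libraries. The ratio of its macrophage to its CD103int DC level, 1.04 (0.931 to 1.17), was the only step between neighbouring libraries, over all 7 genes, whose counting interval held 1.

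**Figure D1:**
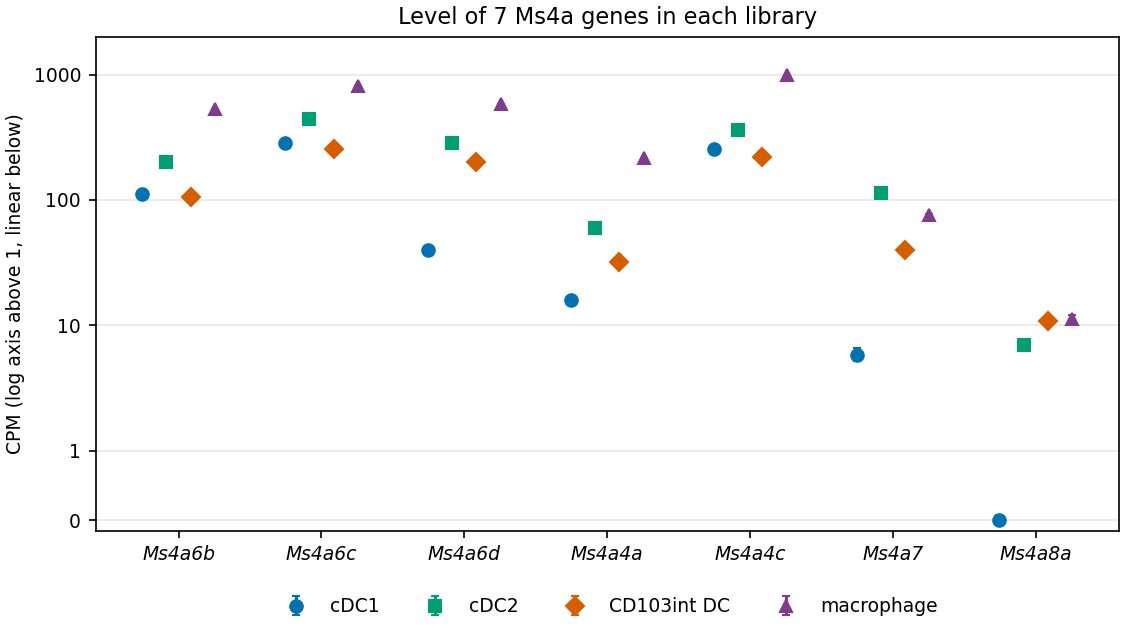
Level of the 7 Ms4a genes in CPM (vertical axis, logarithmic above 1 and linear below), with 1 point for each library and bars for the 95% counting interval, mostly smaller than the point. On the deposited scale the macrophage points are on top for 6 genes (with columns at equal totals Ms4a8a turns) and the cDC2 point for Ms4a7, and Ms4a8a is listed at 0 in the cDC1.

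The CD103int DC differed from the cDC1 library in 3 of the 7 genes, all higher: Ms4a7 by 6.87-fold, Ms4a6d by 4.97-fold (4.74 to 5.22) and Ms4a8a, which was listed at 0 in the cDC1. None was lower. Of the 8443 genes with at least 10 CPM in either library, 9.16% were called higher and 5.46% lower. Ms4a4a was 2.02 times higher, at a log2 difference of 0.97 just short of the rule (1.01 with a pseudocount of 0.1), and Ms4a6b, Ms4a6c and Ms4a4c were within 1.15 times. The median difference of the 7 genes was 0.97 in log2(CPM + 1), against 0.03 for all genes.

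Against the cDC2, 6 of the 7 genes were at lower levels in the CD103int DC, but only Ms4a7 by the rule of size, at 2.83 times (2.69 to 2.97). Of all 8119 genes, 0.665% were called lower and 1.56% higher. The others stood between 1.44 times (Ms4a6d) and 1.90 times (Ms4a6b) below the cDC2, and Ms4a8a was 1.53 times (1.34 to 1.76) higher. The median of the 7 genes was -0.78 against 0.02 for all genes, of which the lowest 10% lay below -0.29. All of the 7 except Ms4a8a were under that value.

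Against the macrophages, 5 of the 7 genes were called lower in the CD103int DC. Ms4a4a was lower by 6.69 times (6.37 to 7.03), Ms4a6b by 5.02, Ms4a4c by 4.51, Ms4a6c by 3.14 and Ms4a6d by 2.91. Ms4a7 was 1.87 times lower and Ms4a8a 1.04 times, both short of the rule, and Ms4a8a turned higher with columns at equal totals. The background was 8.31% lower and 4.35% higher of 8254 genes. The median of the 7 genes was -1.65 against -0.07 for all genes.

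The cDC1 library was below the macrophages for all 7 genes. Ms4a6d was lower by 14.5 times (13.8 to 15.1), Ms4a4a by 13.5, Ms4a7 by 12.8, Ms4a6b by 4.75, Ms4a4c by 3.92 and Ms4a6c by 2.84, with Ms4a8a listed at 0. With columns at equal totals Ms4a8a fell under the minimum level and 6 were called. Of all 8468 genes, 15.8% were lower and 9.21% higher. Against the cDC2, 3 of the 6 genes with at least 10 CPM were lower in the cDC1: Ms4a7 by 19.4 times (17.2 to 21.9), Ms4a6d by 7.16 and Ms4a4a by 3.75. The background there was 9.56% lower and 7.27% higher of 8459 genes. Ms4a8a, at 7.01 CPM in the cDC2 and listed at 0 in the cDC1, was under the minimum level.

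Between cDC2 and macrophages, 4 of the 7 genes were lower in the cDC2: Ms4a4a by 3.60 times, Ms4a4c by 2.76, Ms4a6b by 2.65 and Ms4a6d by 2.02. The call of Ms4a6d ended with columns at equal totals, where its log2 difference was -0.74, and at -0.78 with mitochondrial and ribosomal entries also left out. Of 8141 genes, 6.01% were lower and 1.78% higher. Ms4a6c was 1.82 times lower and Ms4a8a 1.60 times, both short of the rule, and Ms4a7 was 1.51 times higher. The 6 comparisons share libraries, so they are not independent of each other.

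**Figure D2:**
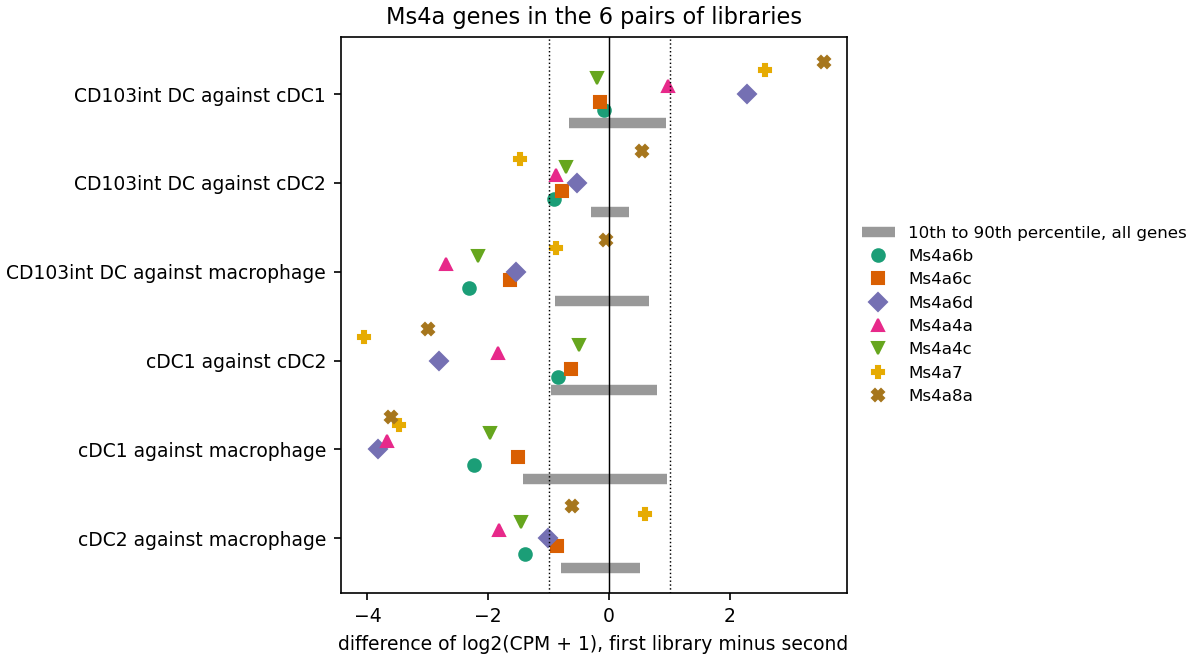
Difference in log2(CPM + 1) of the 7 Ms4a genes (symbols) in each pair of libraries, with a grey bar from the 10th to the 90th percentile of all genes with at least 10 CPM in either library and dotted lines at -1 and 1. In the CD103int DC against cDC2, 6 genes lie left of the grey bar, and in the cDC1 against macrophages all 7 lie left of -1.

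The scaling of the columns touches each comparison with the macrophages. When all columns were brought to the same total, the median difference of all genes moved by 0.27 (CD103int DC against macrophages), 0.38 (cDC1) and 0.28 (cDC2), and by -0.11 for CD103int DC against cDC1. The share of calls that were higher went from 34.4% to 61.7%, from 36.8% to 62.4% and from 22.9% to 60.5% in the 3 macrophage comparisons. Of the 42 differences, 1 changed sign, that of Ms4a8a between CD103int DC and macrophages.

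To compare the genes with each other, levels were divided by the length of the longest coding transcript (CPM per kilobase). The 7 genes together reached 393 CPM per kilobase in the cDC1, 874 in the cDC2, 520 in the CD103int DC and 1931 in the macrophage library. In the cDC1, Ms4a6c and Ms4a4c made up 39.1% and 37.4% of that sum and Ms4a6d 7.19%. In the CD103int DC, Ms4a6d (27.0%), Ms4a6c (26.7%) and Ms4a4c (24.5%) stood close together. Their order rests on the transcript lengths used, since in CPM Ms4a6d (199) was below Ms4a6c (256) and Ms4a4c (219). In the cDC2 the same 3 genes held 23.1%, 27.4% and 23.8%. In the macrophages Ms4a4c led with 29.8%, and Ms4a4a reached 13.3%, against 4.82% to 8.13% in the other libraries. The size of the Ms4a4a shares also rests on transcript length. Its transcript has 836 bases, against 1081 (Ms4a8a) to 2680 (Ms4a6b) for the other genes. Without division by length, Ms4a4a held 214 of the 3201 CPM of the 7 genes in the macrophages. Ms4a7 made up 8.24% of the sum in the cDC2, 4.91% in the CD103int DC, 2.47% in the macrophage and 0.945% in the cDC1 library.

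**Figure D3:**
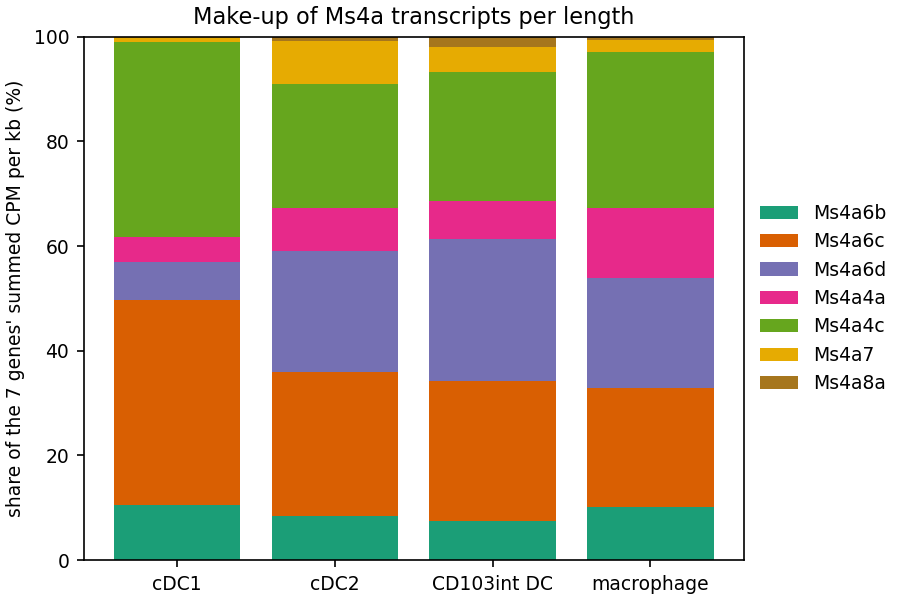
Share of each Ms4a gene (colours) in the summed CPM per kilobase of the 7 genes, in percent, for each library. Ms4a6c and Ms4a4c fill most of the cDC1 bar, and Ms4a6d takes 23.1%, 27.0% and 21.2% in the cDC2, CD103int DC and macrophage bars against 7.19% in the cDC1.

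Likeness of pattern was measured as the Euclidean distance over the 4 libraries, in log2(CPM + 1) centred on each gene's mean, among 8723 genes with at least 10 CPM in some library. Within the family, Ms4a6b and Ms4a4c were closest (0.26), then Ms4a4c and Ms4a6c (0.47) and Ms4a6b and Ms4a6c (0.58). All other pairs were at 1.06 or more. Ms4a6d, whose coding sequence is close to Ms4a6b, was 1.80 from it.

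Outside the family, the gene nearest to Ms4a4c was Irf7, the transcription factor of interferon responses, at 473, 636, 366 and 1648 CPM (distance 0.14). Ifi211 and the sorting receptor gene Sorl1 followed. Nearest to Ms4a6b were the ion transporter gene Slc12a2, Ifi213 and Nxpe1-ps, and to Ms4a6c the adaptor gene Stap1, Xaf1 and Zfp821. Nearest to Ms4a6d was Igsf6, which ran from 12.5 CPM in the cDC1 to 194 in the macrophages (distance 0.12), then Sh3bp5 and the GTPase gene Gbp6.

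Ms4a4a was nearest to Lhx2, Apoc2, a cofactor of lipoprotein lipase, and Cmpk2. Ms4a7 had the cholesterol-sensing receptor Nr1h3 (LXR alpha) first, at 6.65 CPM in the cDC1, 109 in the cDC2 and 105 in the macrophages (distance 0.40), then Fcgr4, an activating IgG receptor, and Slc11a1, a phagosomal metal transporter. Ms4a8a had Ecm1, at 3.42, 37.3, 46.7 and 43.6 CPM (distance 0.29), the chemokine gene Cxcl2 and the coagulation factor gene F10. Over 4 libraries many genes share a pattern, and the nearest gene is a description.

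Listed interferon and monocyte genes were likewise highest in sum in the macrophage library. All 14 listed interferon response genes were in the table, and their summed level was 1815, 3364, 2267 and 9129 CPM. In the CD103int DC, 13 of 14 were called lower than in the macrophages (median -2.16), against 6.62% of all genes with at least 1 CPM in either library (median 0.00). In the cDC2, 11 of 14 were lower than in the macrophages (median -1.59), against 4.66% of all genes. Rsad2, an antiviral enzyme, was at 73.9, 174, 123 and 1184 CPM. Of the 11 monocyte markers, 9 were called lower in that same comparison of CD103int DC with macrophages (median -3.30). Ly6c2, the monocyte surface marker, stood at 233, 236, 132 and 1371 CPM. The share of all genes is the 6.62% given above. The part of either list in the Ms4a levels was not tested.

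Receptors and adaptors reported to work with Ms4a proteins followed only in part. Clec7a (dectin-1) was at 222, 1044, 816 and 1084 CPM, and Fcer1g, an adaptor with an activating motif, at 139, 396, 301 and 397 CPM. Trem2, a lipid receptor whose shedding is linked to human MS4A4A, was at 0.979, 25.0, 21.6 and 9.84 CPM, so that its macrophage level lay under the cDC2 and CD103int DC levels while Ms4a4a was highest there. Its adaptor Tyrobp was at 229, 402, 348 and 453 CPM. The kinases Syk (197, 327, 332 and 376 CPM) and Lyn (579, 514, 436 and 812 CPM) and the adaptor Card9 (34.8, 24.9, 29.4 and 32.3 CPM) stood within 2-fold over the libraries. Against the cDC1, 3 of these 7 genes (Clec7a, Fcer1g and Trem2) were called higher in the CD103int DC and none lower, against 10.1% and 6.77% of all genes with at least 1 CPM. Against the macrophages Trem2 was called higher and none lower, against 5.17% and 6.62%. Fcer1a, the 8th gene of that list, was not analysed here.

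Of 16 other genes of the family and its relatives, 5 were in the table and the other 11, Ms4a1, Ms4a2 and Ms4a3 among them, were not analysed here. Ms4a4b was at 5.69, 6.97, 3.24 and 21.1 CPM and Ms4a14 at 0.754, 3.30, 1.25 and 4.56 CPM, both highest in the macrophages. Ms4a4b shares long runs with Ms4a4c and had fractional reads in all 4 libraries, and the T cell gene Cd3e stood at 2.24, 1.79, 0.0174 and 0.715 CPM. Ms4a4d was at 0.469, 0.0647, 0.0348 and 0.770 CPM. The more distant Tmem176a (48.7, 23.6, 26.3 and 36.0 CPM) was highest in the cDC1, and Tmem176b (61.2, 43.3, 50.1 and 65.7 CPM) stood within 2-fold over the libraries.

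The genes around the 7 were compared by place. The cluster spans 678559 bases and 35 annotated genes, of which 14 were in the table. Of the 7 that are not among the genes described, 5 reached 1 CPM in either library of a pair: AW112010, Ms4a14, Ms4a4b, BE692007 and Gm8369. Their median difference between CD103int DC and cDC2 was -0.90, but none was called higher or lower, against 1.95% and 0.986% of all genes. Within 500 kb on either side, 20 genes reached 1 CPM in that pair and had a median of 0.03, with 1 called higher and none lower. Against the macrophages, 4 of the 5 inside genes and none of 19 flanking genes were lower in the CD103int DC, with medians of -1.54 and 0.20, against 6.62% of all genes. Several of the inside genes are copies or overlap members, so their values are not independent of the 7. AW112010, a non-coding RNA, was at 24.4, 110, 63.3 and 59.9 CPM and did not share the macrophage maximum.

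**Figure D4:**
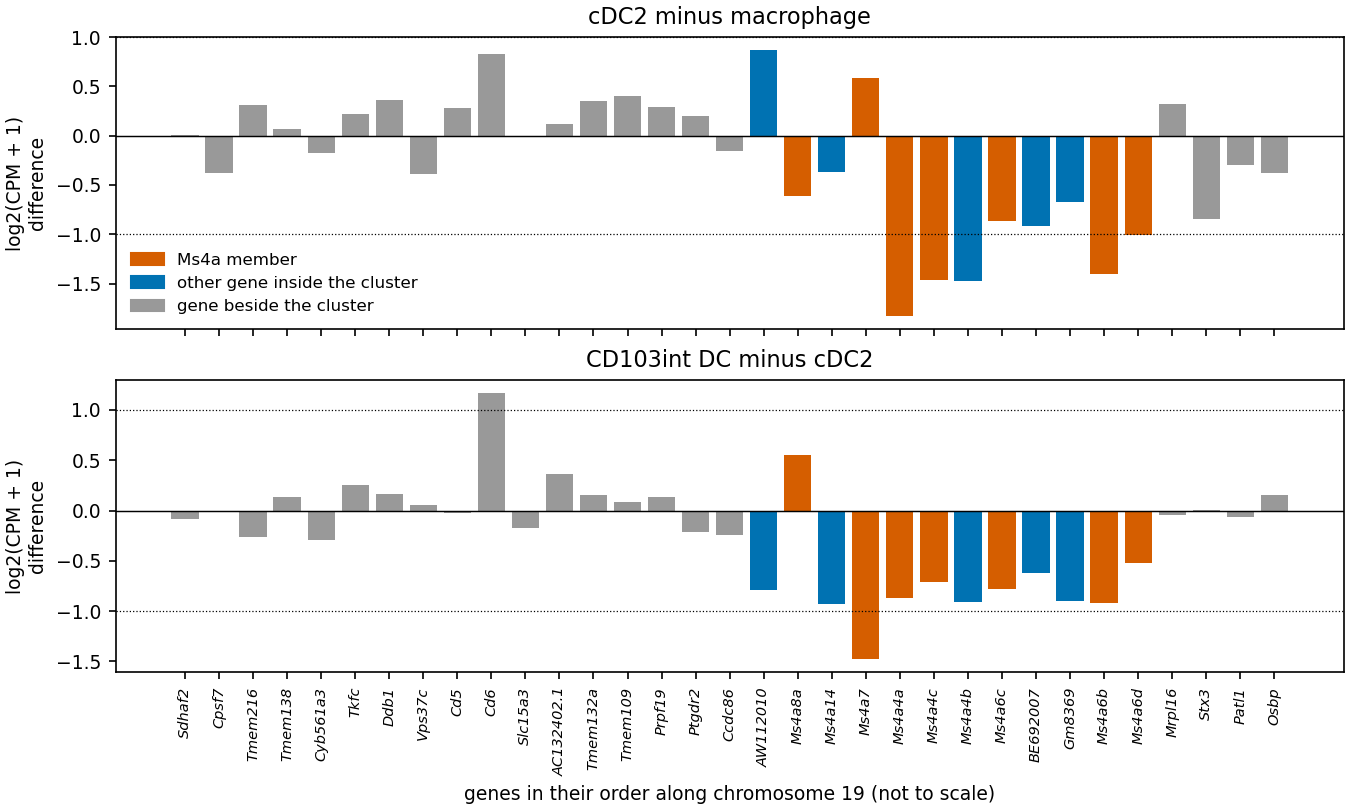
Difference in log2(CPM + 1) for genes in their order along chromosome 19, for cDC2 minus macrophage (top) and CD103int DC minus cDC2 (bottom), with the 7 Ms4a genes in orange, other genes inside the family cluster in blue and genes within 500 kb of it in grey. In the bottom panel the plotted inside genes other than Ms4a8a lie below 0, while the flanking genes have a median of 0.03. None of the blue genes is called higher or lower in that panel.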

How the data were processed

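RNA was measured in 4 libraries, 1 for each sorted population. Per the labels' protocols, total RNA was column-purified, treated with DNase I and made into libraries with a directional kit. The authors deposited 1 table of a signal, which its name gives as CPM after TMM scaling and a filter. The values are not on a log scale. Aligner, counter and build were not given in the sources used here. GENCODE M21 held each of the 13976 identifiers with its symbol.

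The smallest step, 1/100 of the value of 1 read, divided all values. In each library, 70.6% to 79.0% of the nonzero values were whole numbers of reads (tolerance 0.001). The values are therefore estimated counts, and no count test was run. Differences were taken in log2(CPM + 1) between each pair of libraries, with 2-fold and 10 CPM as limits (1 CPM for gene lists), by scripts tested on simulated data (Python 3.11.15, numpy 2.4.6, pandas 2.3.3, scipy 1.17.1, matplotlib 3.10.9, Biopython 1.88). Named were all 7 genes, the listed relatives and partners, genes in or within 500 kb of the cluster, the 3 nearest genes by pattern, and list members that show a label. The genes and lists were chosen with earlier results of these data known. Identity was planned on proteins and was computed on coding sequences instead. Alternatives were 3 other scalings, another pseudocount (0.1) and other minimum levels.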

Additional observations from a re-analysis of the deposited data

How the results depend on the processing

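No paired analysis was possible because each population had 1 library, and for the same reason no library could be left out. Of the 12 counts of Ms4a genes called higher or lower, 10 were the same with columns brought to equal totals, 12 with median-ratio factors, and 11 each with equal totals without mitochondrial and ribosomal entries, a pseudocount of 0.1, a minimum of 1 CPM and no minimum. With equal totals, cDC1 against macrophages went from 7 to 6 genes lower (without Ms4a8a) and cDC2 against macrophages from 4 to 3 (without Ms4a6d), and the latter was also 3 without mitochondrial and ribosomal entries. None of the 42 differences moved by more than 0.40 under another scaling. With a pseudocount of 0.1 the largest move was 3.21, for Ms4a8a, which is listed at 0 in the cDC1. Counts over all genes moved more. With equal totals, those higher and lower went from 359 and 686 to 644 and 400 (CD103int DC against macrophages), from 780 and 1339 to 1471 and 885 (cDC1) and from 145 and 489 to 352 and 230 (cDC2). Without mitochondrial and ribosomal entries they were 694 and 459, 1775 and 907, and 357 and 282, with 726 in place of 461 lower for CD103int DC against cDC1 and 949 in place of 615 higher for cDC1 against cDC2. That scaling took the share of higher calls from 62.6% to 48.0% and from 43.2% to 56.5% in those 2 pairs. A minimum of 1 CPM, or none, gave 1303 and 876 genes for CD103int DC against cDC1, 247 and 125 against cDC2 (127 and 54 at 10 CPM) and 652 and 836 against macrophages, and 1042 and 1376 for cDC1 against cDC2 (615 and 809), 1473 and 1849 for cDC1 against macrophages and 311 and 590 for cDC2 against macrophages, where 34.5% of calls were then higher. Depth limits only the low genes: 10 CPM stood for 464 to 574 reads.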
